A study of Mus musculus with 24 samples.

Results

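The genes described here encode 47 subunits of the receptors for glutamate, GABA and glycine, the main fast excitatory and inhibitory transmitters of the brain. They were chosen by gene family name from the 54446 gene identifiers counted. The set holds 17 subunits of the ionotropic glutamate receptors, 7 metabotropic glutamate receptors, 16 subunits of GABA-A receptors, 2 subunits of the GABA-B receptor and 5 subunits of glycine receptors. Subunits outside the 47 were not analysed here. Polyadenylated RNA was sequenced from 12 mouse embryos at E14.5. Each brain was divided into the secondary prosencephalon (SP), which forms the telencephalon and hypothalamus, and the diencephalon, midbrain and hindbrain together (DMH). Embryos were Tfap2b-/- (mutants) or Tfap2b+/+ littermates (controls) from crosses of heterozygous parents, with 3 labelled female and 3 labelled male of each genotype, which gave 24 libraries in 8 groups of 3. The mutant allele carries a PGK-neo cassette in an exon of *Tfap2b*, which encodes the transcription factor AP-2β, and is present in every cell of the embryo and not only in the brain. Each library is 1 embryo's tissue, and RNA was isolated from each separately.

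Ionotropic glutamate receptors are cation channels made of AMPA, kainate, NMDA or delta subunits, and metabotropic glutamate receptors act through G proteins. GABA-A and glycine receptors are chloride channels, while the GABA-B receptor is a G protein coupled pair of subunits. In the embryonic brain many young neurons carry these receptors before they form synapses, GABA and glycine often depolarise them, and the subunits used change as neurons mature.

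Each library had 24717386 to 66844175 read pairs counted in genes, so that 3 counts, used as the floor of detection, corresponded to 0.0455 to 0.123 CPM (counts-per-million). Significance is given as the FDR, the Benjamini-Hochberg adjusted p over all genes tested. In DMH *Tfap2b* itself was lower in mutants, at log2 fold changes of -2.76 in females (SE 0.17, edgeR FDR 0.00946) and -2.92 in males (SE 0.11, edgeR FDR 2.45e-05), and in SP the log2 fold changes were 0.02 and -0.07. Tissue markers followed the labels, since 6 telencephalic genes summed to 1408 to 2497 CPM in SP and 75.0 to 153 CPM in DMH, and 6 midbrain and hindbrain genes to at most 0.989 CPM in SP and 147 to 208 CPM in DMH. Some libraries stood apart. The DMH library of female mutant 3 held 723 CPM of 7 skeletal muscle genes, against 2.62 to 5.01 in the other DMH libraries, and 1783 CPM of 5 cartilage genes, against 65.2 to 88.9. Both libraries of female mutant 3 were left out of the tests, and values with them are given where they change a result. Both libraries labelled female control 2 carried Y-linked transcripts (133 CPM in SP and 122 in DMH) and at most 0.0907 CPM of *Xist*, which goes against the label. The female controls, the sex covariate and the sex interactions include this embryo as labelled. The SP library of male mutant 1 had 9.98% of fragments unmapped and 7.85% mapped to several places, against 5.46 to 7.05% and 4.96 to 5.81% in the other 23 libraries, and its telencephalic sum of 2497 CPM compared with 1408 to 1809.6 in the other SP libraries. The 14 caudal *Hox* genes, which mark the posterior hindbrain, summed to 0.0378 CPM in the DMH of female control 1, 0.45 in female mutant 1, 0.105 in female mutant 2 and 11.5 in male mutant 2, against 338 to 520 CPM in the other 8 DMH libraries.

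The receptor genes spanned a wide range of levels in control tissue, compared here as CPM per kb of annotated exon. *Gabbr1*, the GABA-binding subunit of the GABA-B receptor, was the most abundant in both regions, at 35.7 ± 3.09 CPM per kb in SP and 64.9 ± 3.26 in DMH (SD, n = 6). Second in both regions was *Grik5*, a kainate subunit that forms channels only with partners, at 28.1 ± 1.18 and 35.3 ± 3.23 CPM per kb. In SP the next were *Grik3*, another kainate subunit, at 22.4 ± 3.49, the AMPA subunit *Gria1* at 18.1 ± 4.17 and *Glra2*, the glycine receptor alpha subunit typical of embryonic brain, at 17.9 ± 2.9 CPM per kb. The levels of *Gria1* and *Glra2* differed by less than their SDs, and *Grik3* lay above both by less than the sum of the SDs. In DMH *Glra2* came next at 26.7 ± 2.99, followed by *Gabra3*, the most abundant GABA-A subunit there, at 22.8 ± 3.23 and *Gria1* at 18.3 ± 2.25 CPM per kb. In SP the leading GABA-A subunit was *Gabra2* at 11.9 ± 1.49, with *Gabra3* at 8.78 ± 1.87 CPM per kb. *Grm5*, which signals through phospholipase C, led the metabotropic receptors in SP at 4.98 ± 1.77 CPM per kb. In DMH *Grm3*, which lowers cyclic AMP, reached 13.6 ± 4.08 and *Grm5* 11.3 ± 4.57 CPM per kb, a difference smaller than either SD.

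**Figure D1:**
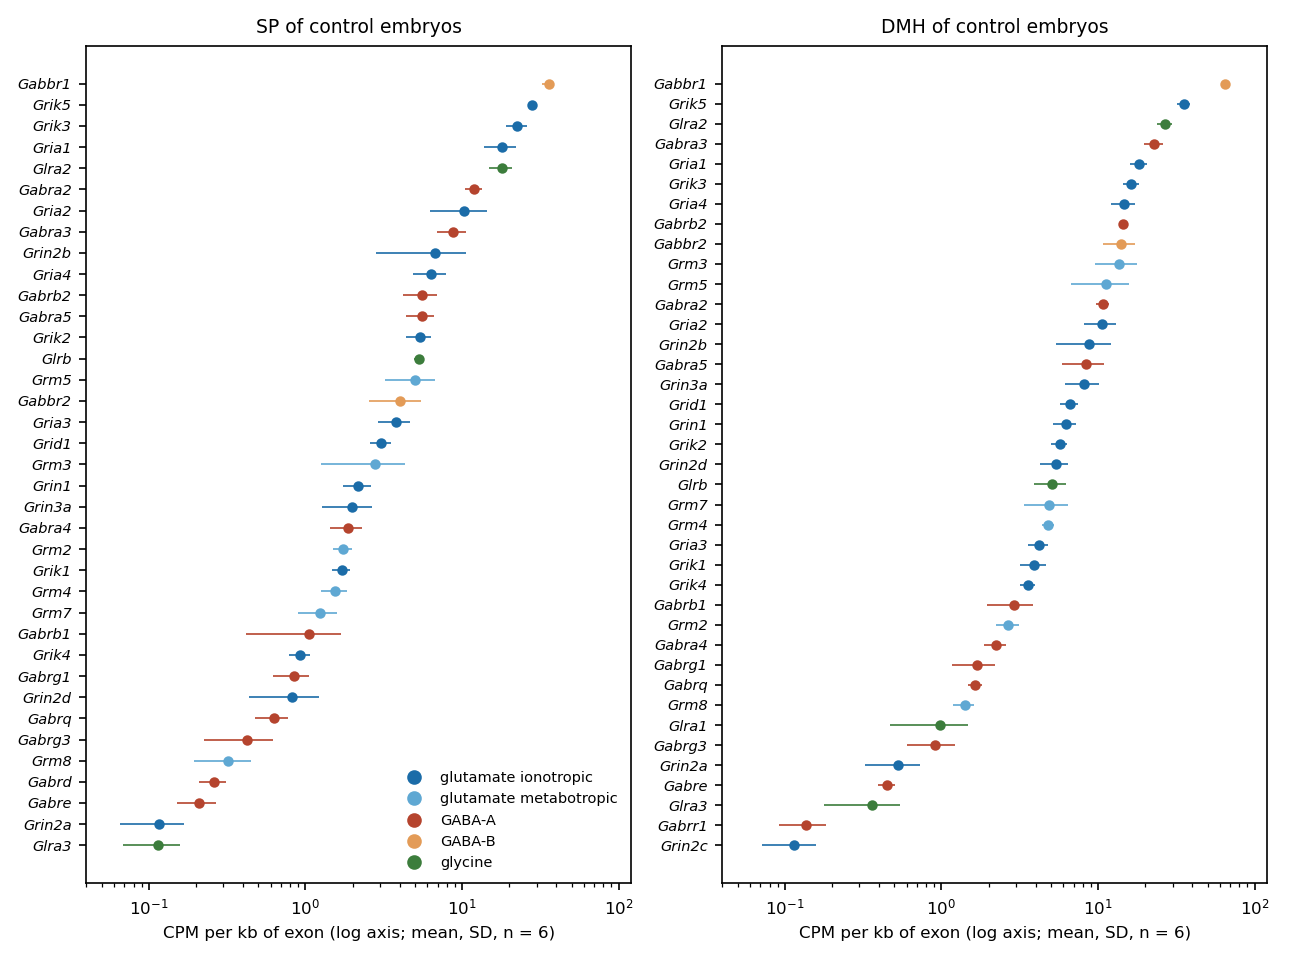
Mean level of each receptor gene above 0.1 CPM per kb in control SP and control DMH, on a log axis in CPM per kb of exon, with bars for the SD over 6 libraries. *Gabbr1* stood highest in both regions, at 35.7 CPM per kb in SP and 64.9 in DMH.

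At the other end 4 genes were at or under 3 counts in at least 20 of the 24 libraries. These were *Grm6*, known from retinal bipolar cells, with at most 4 counts in any library, *Gabra6*, known from mature cerebellar granule cells, with at most 1, *Gabrp*, found mainly outside the brain, with at most 3, and the glycine receptor gene *Glra4* with at most 5. A further 4 were too low for the test between regions in controls, namely *Grin3b* with at most 7 counts and the retinal GABA receptor genes *Gabrr1*, *Gabrr2* and *Gabrr3* with at most 28, 18 and 16. For all 8 the depth limits what could be detected.

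Comparing SP with DMH in the 6 control embryos shows where in the brain each subunit was more highly expressed. Of the 47 genes 39 passed the filter on low counts, and 28 were called (an FDR below 0.05 and a log2 fold change beyond 0.5 in either direction), 27 of them higher in DMH and 1 lower. *Glra1* among the higher ones and *Gabrd*, the lower one, were near or under the floor in 1 region and passed the filter through the other alone, so their calls carry no weight. With at least 10 counts required in every library 36 receptor genes were tested and 26 called, all higher, where 31.8% of all genes were called and 18.5% were called higher. With the usual filter, among all genes tested 34.5% were called, 20.4% higher and 14% lower in DMH. Over the 39 receptor genes the median log2 fold change was 1.11, against -0.0029 over all genes. Every DMH library lay above every SP library for 23 receptor genes, where 21% of all genes did so, and every DMH library lay below for 1, where 19.1% did so. In these bulk tissues a larger number of expressing cells and more RNA per cell cannot be told apart. The 6 general neuron genes summed to 4257 to 5506 CPM in SP controls and 5845 to 6328 in DMH controls, and the 6 progenitor genes to 1692 to 2186 and 1467 to 1807. GABAergic markers (3 genes) summed to 148 to 260 CPM in SP and 268 to 313 in DMH, and glutamatergic markers (2 genes) to 103 to 131 and 151 to 183. The part of this cell composition in the receptor differences was not tested.

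**Figure D2:**
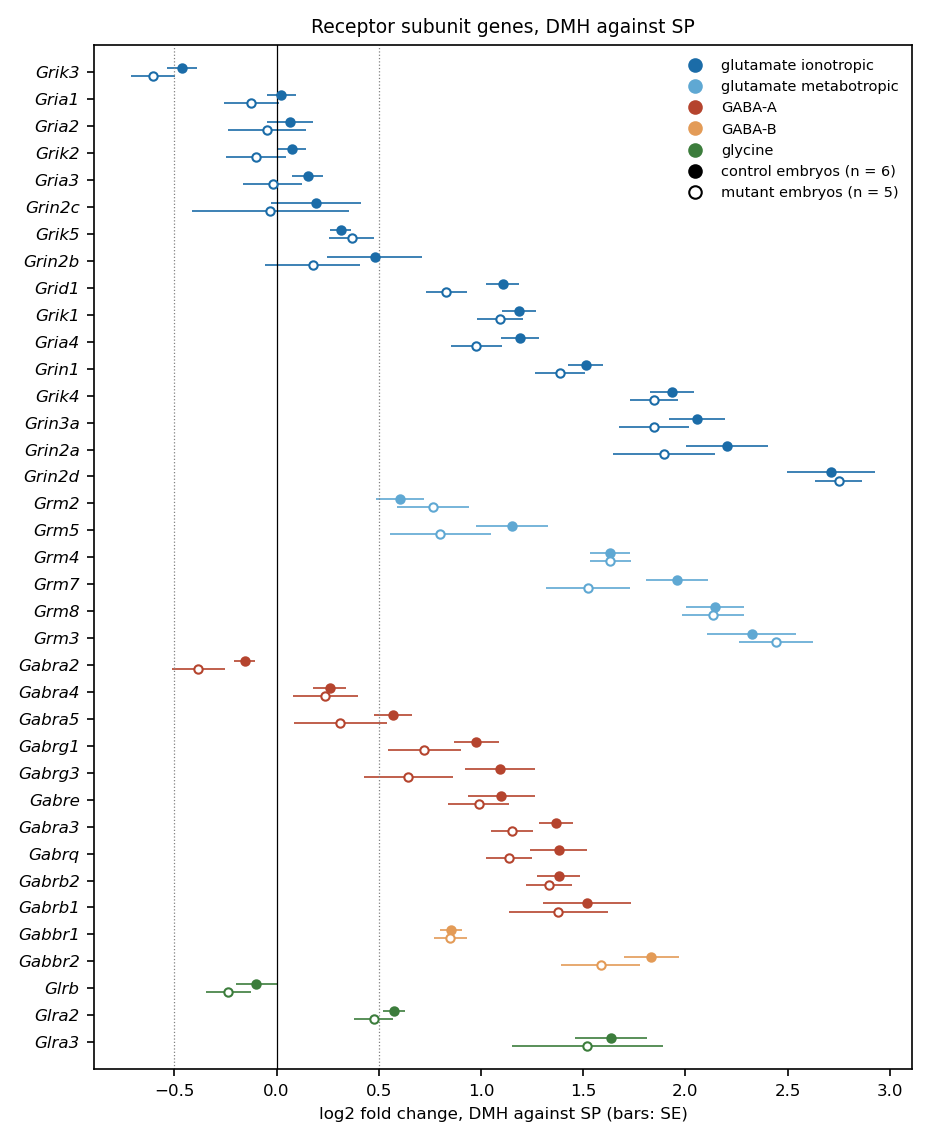
Log2 fold change between DMH and SP (above 0, higher in DMH) for 37 receptor genes, grouped by class, with bars for the SE. Filled points are controls (6 embryos) and open points mutants (5 embryos). Values in controls ran from -0.46 for *Grik3* to 2.71 for *Grin2d*. *Glra1*, *Gabrd* and *Gabrr1*, each near or under the floor in 1 region, are not drawn.

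The ionotropic glutamate receptor genes are given by family, and differences between families were not tested. Of the 6 NMDA genes tested 4 were called higher in DMH, with a median log2 fold change of 1.78, while only *Gria4* of the 4 AMPA genes and *Grik1* and *Grik4* of the 5 kainate genes were called. *Grin2d*, an NMDA subunit that gives slowly closing channels (chr7:45831883-45878378, minus strand, GRCm38), had 3.56, 4.27 and 10.3 CPM (lowest, median and highest) in SP controls and 30.1, 32.0 and 47.1 CPM in DMH controls. The groups did not overlap, and the log2 fold change was 2.71 (SE 0.22, edgeR FDR 6.15e-07). *Grin2a*, the NMDA subunit of mature synapses (chr16:9567898-9995560, minus strand), was far lower in level, with 1.25, 1.91 and 3.65 CPM in SP and 4.87, 9.80 and 15.5 CPM in DMH. Here too every DMH library was above every SP library, and the log2 fold change was 2.20 (SE 0.20, edgeR FDR 4.01e-07). *Grin3a*, which binds glycine and lowers calcium entry (chr4:49661611-49845744, minus strand), had 17.2, 22.1 and 39.7 CPM in SP and 71.6, 97.2 and 143 CPM in DMH, a log2 fold change of 2.06 (SE 0.14, edgeR FDR 1.00e-07). *Grin1*, the subunit that every NMDA receptor needs, differed by a log2 fold change of 1.51 (SE 0.09, edgeR FDR 1.87e-09).

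*Grin2b*, the NMDA subunit that dominates before birth (chr6:135713233-136173511, minus strand), was not called. It had 83.1, 144 and 336 CPM in SP controls and 120, 215 and 359 CPM in DMH controls, so that the regions overlapped widely, and the log2 fold change was 0.48 (SE 0.23, edgeR FDR 0.0907). Without male control 1, the library highest in both regions, it was 0.57 (edgeR FDR 0.0219) and passed the thresholds. Of the summed per-kb level of the 7 NMDA genes, *Grin2b* was 45.0 to 63.1% in the SP controls (mean 53.8%) and 23.3 to 34.4% in the DMH controls (mean 29.4%). The share of *Grin3a* was 15.1 to 20.5% in SP and 27.7 to 28.3% in DMH, and that of *Grin2d* 4.12 to 8.96% and 16.2 to 21.9%. None of these 3 shares overlapped between regions.

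Among AMPA subunits *Gria1* had 84.0, 105 and 147 CPM in SP and 92.7, 113 and 126 CPM in DMH, a log2 fold change of 0.02 (SE 0.07) that was not called. *Gria2*, which sets calcium impermeability, and *Gria3* had log2 fold changes of 0.07 (SE 0.11) and 0.15 (SE 0.07). *Gria4* was called higher in DMH, by a log2 fold change of 1.19 (SE 0.09, edgeR FDR 1.01e-07). Its share of the summed per-kb level of the 4 AMPA genes was 14.47 to 18.7% in SP and 29.99 to 31.5% in DMH. The kainate subunit *Grik4*, which needs a partner subunit, was called higher in DMH by a log2 fold change of 1.93 (SE 0.11, edgeR FDR 1.05e-09), and *Grik1* by 1.19 (SE 0.08, edgeR FDR 8.80e-09). *Grik5* differed by 0.31 (SE 0.05, edgeR FDR 6.57e-05), under the fold threshold although no library overlapped. *Grik3* had 175, 189 and 257 CPM in SP and 122, 146 and 176 CPM in DMH, a log2 fold change of -0.46 (SE 0.07, edgeR FDR 5.23e-05) that stayed under the fold threshold. Leaving out female control 3 or male control 3 took *Grik3* past it, to -0.51 and -0.53. *Grid1*, a delta subunit that binds cerebellins rather than opening to glutamate, was called higher in DMH by 1.11 (SE 0.08, edgeR FDR 1.35e-08).

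All 6 metabotropic glutamate receptors that could be tested were called higher in DMH, with a median log2 fold change of 1.79. *Grm3* (chr5:9485541-9725170, minus strand) had 5.31, 7.14 and 17.5 CPM in SP and 25.7, 41.6 and 61.8 CPM in DMH, a log2 fold change of 2.32 (SE 0.22, edgeR FDR 2.85e-06). *Grm8*, a presynaptic receptor (chr6:27275119-28135178, minus strand), had 2.12, 2.66 and 5.41 CPM in SP and 11.6, 13.8 and 16.8 CPM in DMH, a log2 fold change of 2.14 (SE 0.14, edgeR FDR 8.92e-09). *Grm7*, found at presynaptic active zones (chr6:110645581-111567230, plus strand), had 5.58, 6.66 and 10.9 CPM in SP and 16.3, 28.3 and 42.7 CPM in DMH, a log2 fold change of 1.96 (SE 0.15, edgeR FDR 1.59e-07). For all 3 every DMH library was above every SP library. *Grm4* followed with 1.63 (SE 0.10, edgeR FDR 2.75e-09), *Grm5* with 1.15 (SE 0.17, edgeR FDR 1.47e-04) and *Grm2* with 0.60 (SE 0.12, edgeR FDR 3.15e-04). Only *Grm5* overlapped between regions among the 6.

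**Figure D3:**
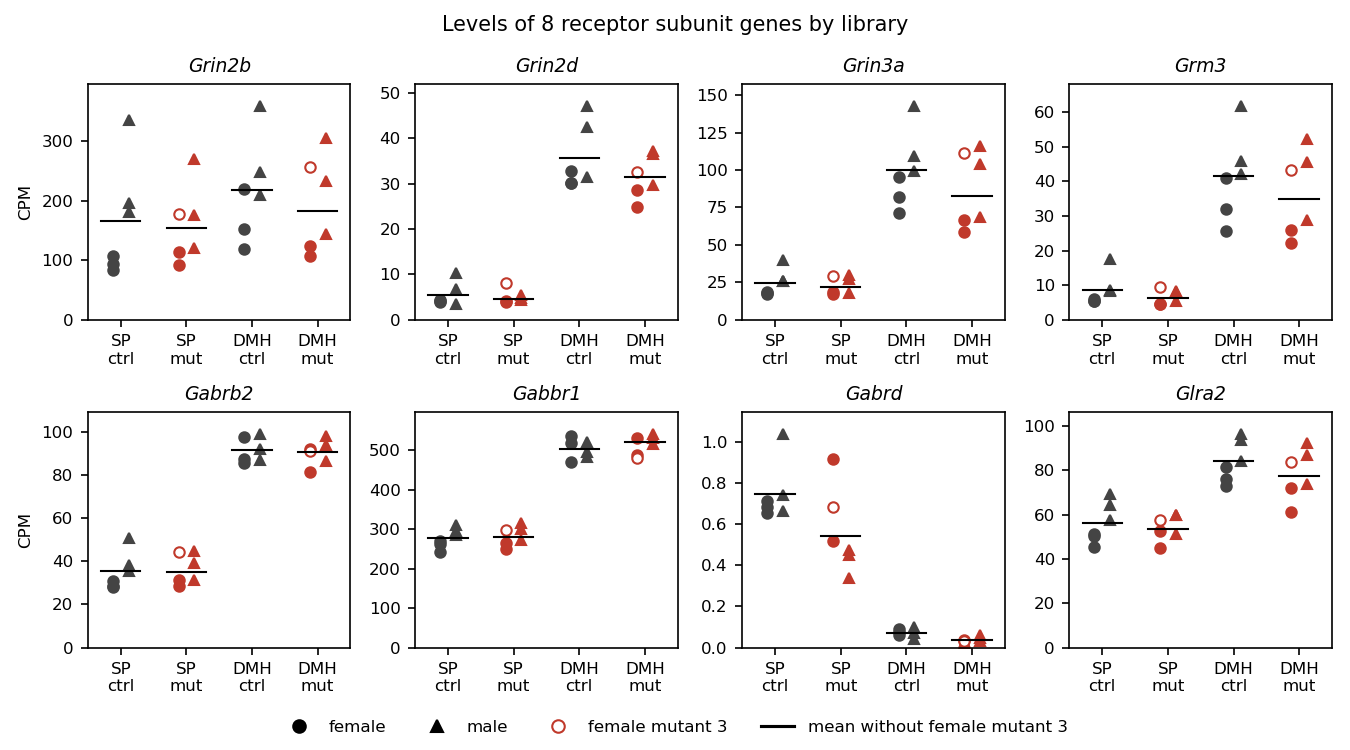
CPM in each library of 8 receptor genes in SP and DMH, with controls in grey, mutants in red, circles for females and triangles for males, an open symbol for female mutant 3 and a line at each group's mean without it. *Gabrd* was at 0.656 to 1.04 CPM in SP controls and 0.0425 to 0.0988 in DMH controls, while the *Grin2b* values of the regions overlapped.

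Of the 11 GABA-A genes tested 8 were called higher in DMH and 1 lower, with a median log2 fold change of 1.09. *Gabrb2*, a beta subunit that helps form the GABA binding site (chr11:42419757-42629028, plus strand), had 28.4, 33.1 and 51.0 CPM in SP and 85.9, 90.0 and 99.4 CPM in DMH, a log2 fold change of 1.38 (SE 0.10, edgeR FDR 1.19e-07). *Gabra3*, an alpha subunit abundant before birth (chrX:72432681-72656848, minus strand), had 28.0, 31.4 and 46.9 CPM in SP and 76.1, 87.2 and 108 CPM in DMH, a log2 fold change of 1.37 (SE 0.08, edgeR FDR 5.08e-09). *Gabrq*, the theta subunit known from monoaminergic and hypothalamic cells (chrX:72825178-72842602, plus strand), had 2.24, 3.32 and 4.69 CPM in SP and 8.05, 8.46 and 10.3 CPM in DMH, a log2 fold change of 1.38 (SE 0.14, edgeR FDR 3.78e-07). None of the 3 overlapped between regions. *Gabrb1* (1.52), *Gabre* (1.1), *Gabrg3* (1.09), *Gabrg1* (0.98) and *Gabra5* (0.57) completed the log2 fold changes called higher, and of these only *Gabre* did not overlap. *Gabra2* and *Gabra4* were not called, at -0.15 (SE 0.05) and 0.26 (SE 0.08). Among the 5 alpha subunit genes of the set, *Gabra2* had 37.5 to 45.1% of the summed per-kb level in SP and 21.5 to 27.8% in DMH, and *Gabra3* had 27.2 to 34.5% and 49.9 to 52.9%.

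*Gabrd* had few counts in DMH and passed the filter through its SP libraries alone, so its fitted fold is not given. It encodes the delta subunit, which replaces gamma subunits in receptors outside synapses (chr4:155384980-155398112, minus strand). SP controls had 0.656, 0.699 and 1.04 CPM, and DMH controls 0.0425, 0.0733 and 0.0988 CPM, which is at most 3 counts in any DMH library. Summed over the 6 controls it had 155 counts in SP and 14 in DMH, a ratio of normalised counts of 10.8 (exact 95% interval 6.26 to 20.3). The interval covers counting error only and not the spread between embryos. In SP too its level was low, at 0.261 ± 0.0509 CPM per kb (SD, n = 6).

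Both GABA-B subunits were called higher in DMH. *Gabbr1* (chr17:37045966-37075067, plus strand) had 243, 277 and 309 CPM in SP and 470, 507 and 536 CPM in DMH, a log2 fold change of 0.85 (SE 0.05, edgeR FDR 2.08e-09). *Gabbr2*, which carries the receptor to the surface and couples it to G proteins (chr4:46662305-46991873, minus strand), had 17.8, 25 and 43.1 CPM in SP and 67.5, 90.6 and 130 CPM in DMH, a log2 fold change of 1.83 (SE 0.13, edgeR FDR 1.97e-07). Neither overlapped between regions. Per kb, *Gabbr2* was lower than *Gabbr1* in both, at 3.99 ± 1.45 CPM per kb in SP and 14 ± 3.24 in DMH (SD, n = 6).

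Of the 4 glycine receptor genes tested the 3 alpha subunits were called higher in DMH and the beta subunit was not, although *Glra1* passed the filter through its DMH libraries alone. *Glra1*, the alpha subunit of the mature brainstem and spinal cord (chr11:55514238-55608198, minus strand), had 0, 0 and 0.110 CPM in SP controls and 0.378, 2.42 and 4.05 CPM in DMH controls. The SP libraries held 5 counts in all, 4 of them in male control 1, against 478 in DMH. The ratio of normalised counts was 97.8 (exact 95% interval 41.6 to 303). This interval pools the embryos and covers counting error only, not the spread between embryos. Its lowest DMH value was in female control 1, whose caudal *Hox* sum was 0.0378 CPM. *Glra2* (chrX:165129017-165327393, minus strand) had 45.2, 54.6 and 69.2 CPM in SP and 72.9, 82.9 and 96.6 CPM in DMH, a log2 fold change of 0.57 (SE 0.05, edgeR FDR 1.95e-07). *Glra3*, a minor alpha subunit (chr8:55940460-56130070, plus strand), had 0.587, 1.06 and 1.62 CPM in SP and 1.97, 2.73 and 6.32 CPM in DMH, a log2 fold change of 1.64 (SE 0.18, edgeR FDR 8.54e-07). No alpha subunit overlapped between regions. *Glrb*, which anchors the receptor to gephyrin, had 21.7, 25.4 and 26.5 CPM in SP and 17, 23.4 and 32.1 CPM in DMH, a log2 fold change of -0.10 (SE 0.10). *Glra2* made up 95.3% of the summed per-kb level of the 4 alpha genes in DMH controls and 99.3% in SP controls (means, n = 6).

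In the 5 mutant embryos, which share no library with the controls, 40 receptor genes were tested and 28 called, 26 higher and 2 lower in DMH, with a median log2 fold change of 0.91. Among all genes tested there 32.3% were called, 18.2% higher and 14.1% lower. Of the called genes 26 were called in the same direction in both genotypes, *Glra1* and *Gabrd* among them. In mutants *Glra1*, *Gabrd* and *Gabrr1* passed the filter through 1 region alone, so their calls carry no weight. With at least 10 counts required in every library 36 receptor genes were tested in mutants and 25 called, 24 higher and 1 lower. Over all genes 4500 of 14690 were then called, 2480 higher and 2020 lower. *Gabra5* and *Glra2* were called in controls but not in mutants, where their log2 fold changes were 0.31 (SE 0.23) and 0.47 (SE 0.09). *Grik3* was called in mutants only, with 175, 178, 224, 187 and 244 CPM in SP and 131, 120, 155, 120 and 157 CPM in DMH, a log2 fold change of -0.60 (SE 0.11, edgeR FDR 6.35e-04). *Gabrr1*, tested only in mutants, had at most 0.0473 CPM in their SP libraries and 0.343 to 0.573 CPM in DMH. In controls it had at most 0.102 CPM in SP and 0.198 to 0.447 CPM in DMH. Since it passes the filter on counts through its DMH libraries alone, no fold is given. The calls of *Grm5* and *Gabrg3* in mutants were less firm. Leaving out female mutant 1, male mutant 1 or male mutant 3 in turn gave *Grm5* adjusted p-values of 0.0525, 0.0597 and 0.0657 in edgeR, and leaving out female mutant 1, female mutant 2 or male mutant 3 gave *Gabrg3* 0.0737, 0.0834 and 0.0974. The difference between the genotypes' region contrasts was tested as an interaction, and no receptor gene of 40 passed an FDR of 0.2 with edgeR (2 at an unadjusted p under 0.05, 1 with the likelihood ratio test and 2 with DESeq2), where 0.00565% of all genes passed, and 0.0339% by each of the other tests. The smallest interaction p-values were those of *Gabrr1*, with values near the floor in SP, and *Grid1*, at -0.27 (SE 0.13, edgeR FDR 0.999). In that fit 365 of 17684 genes had an unadjusted p under 0.05. It did not use the pairing of SP and DMH within embryos. With the embryo as a block 6 receptor genes of 40 had such a p in edgeR, where 661 of 18317 genes did, and no receptor gene was called.

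Since AP-2 factors bind GC-rich palindromes, the 250 bases before the RefSeq transcription starts were searched for GCCNNNGGC, which reads the same on both strands. RefSeq windows (GRCm38.p6) were at hand for 36 of the 47 genes, 43 windows in all, and 7 of these (16.3%) held the letters, against 13.7% of 32851 windows genome-wide. The 7 windows belonged to *Grm8*, *Grik4*, *Gabrb1*, *Gabrq*, *Gabbr1*, *Grm2* and *Gabra5*, with 2 matches in *Grik4*. All 7 genes were called higher in DMH in controls, as were 13 of the 29 genes with a window and no match, where 20.4% of all genes tested were. This difference was not tested, and the share among all genes whose windows hold the letters was not computed. A match describes letters and does not show binding. To show what such windows look like, 3 with a match and that of *Grm3*, a gene with a large region difference and no match, are given 5′ to 3′ on the gene's strand, with the match in capitals. They lie at chr6:28135147-28135396 (*Grm8*, minus strand), chrX:72824928-72825177 (*Gabrq*, plus), chr17:37045716-37045965 (*Gabbr1*, plus) and chr5:9725353-9725602 (*Grm3*, minus).
Grm8: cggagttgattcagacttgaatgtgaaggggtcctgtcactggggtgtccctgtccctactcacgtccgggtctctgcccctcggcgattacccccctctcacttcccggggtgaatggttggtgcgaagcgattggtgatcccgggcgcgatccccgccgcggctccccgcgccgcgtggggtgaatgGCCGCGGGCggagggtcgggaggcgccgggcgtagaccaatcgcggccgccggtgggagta
Gabrq: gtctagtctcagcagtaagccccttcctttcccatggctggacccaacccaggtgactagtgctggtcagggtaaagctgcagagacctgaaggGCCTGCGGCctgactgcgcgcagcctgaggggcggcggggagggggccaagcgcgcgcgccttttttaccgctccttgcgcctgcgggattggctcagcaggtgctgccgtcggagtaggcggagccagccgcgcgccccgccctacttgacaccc
Gabbr1: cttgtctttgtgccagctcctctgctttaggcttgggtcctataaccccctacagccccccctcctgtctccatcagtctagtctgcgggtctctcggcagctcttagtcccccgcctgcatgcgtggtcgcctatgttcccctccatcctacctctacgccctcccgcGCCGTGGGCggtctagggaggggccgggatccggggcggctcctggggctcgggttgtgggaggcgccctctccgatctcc
Grm3: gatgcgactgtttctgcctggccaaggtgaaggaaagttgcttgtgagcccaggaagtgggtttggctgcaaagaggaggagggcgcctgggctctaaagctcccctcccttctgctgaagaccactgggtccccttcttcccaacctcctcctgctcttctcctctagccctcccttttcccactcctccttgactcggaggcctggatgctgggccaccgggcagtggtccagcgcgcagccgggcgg

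Partner genes of these receptors were described from a list of 45 auxiliary subunits, scaffold proteins and chloride transporters. All 45 were tested, and in controls 19 were called higher and 3 lower in DMH, where 20.4% and 14% of all genes were so, with a median log2 fold change of 0.40. The 3 called highest were *Cbln4*, a secreted cerebellin, at 2.49 (SE 0.15, edgeR FDR 9.12e-09), *Kctd16*, an auxiliary subunit of GABA-B receptors, at 2.32 (SE 0.24, edgeR FDR 8.27e-07), and *Slc12a5*, the neuronal chloride exporter that makes GABA hyperpolarising, at 2.18 (SE 0.18, edgeR FDR 1.43e-06). Called lower were *Cnih3*, an AMPA receptor auxiliary protein, at -1.55 (SE 0.07, edgeR FDR 2.35e-10), the scaffold *Dlg1* at -0.91 (SE 0.04, edgeR FDR 2.85e-10) and *Homer3*, a scaffold for metabotropic glutamate receptors, at -0.65 (SE 0.06, edgeR FDR 8.28e-08). In mutants 19 were called higher and 3 lower, where 18.2% and 14.1% of all genes were so, the lower ones being *Cnih3*, *Dlg1* and *Homer2*, a paralog of *Homer3*, at -0.71 (SE 0.10), while *Homer3* was not called at -0.46 (SE 0.13).

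The study's own comparison was between genotypes within each sex and region, to ask which genes depend on *Tfap2b*. No receptor gene was called in any of the 4 comparisons, nor with the sexes together, under the thresholds used there (an FDR below 0.2 and a log2 fold change beyond 0.5 in either direction). This held for the quasi-likelihood and likelihood ratio tests of edgeR and for DESeq2. Over all genes tested the quasi-likelihood test called 0.0181% in female SP, 0.0% in male SP, 0.00596% in female DMH, 0.0236% in male DMH, 0.0% in SP of both sexes and 0.0523% in DMH of both sexes. At an unadjusted p under 0.05 there were 2 receptor genes in female SP, 1 in male SP, 13 in female DMH, 2 in male DMH, 1 in SP and 18 in DMH of both sexes by that test, where 2.58%, 3.65%, 8.9%, 2.89%, 5.07% and 15% of all genes had such a p. The counts in SP moved with single libraries. In female SP the count of 2 became 6 without female control 2 and 1 without female control 1. Over all genes the number went from 428 of 16615 to 674 of 16670 and 508 of 16681. In male SP the count of 1 became 5 without male mutant 1, 2 without male control 2 or male mutant 3 and 0 without male mutant 2. Over all genes the number went from 605 of 16562 to 1725 of 17176 without male mutant 1 and 1047 of 16598 without male mutant 2. In SP of both sexes the count of 1 became 6 without male mutant 1, 4 without male control 3 and 2 without female mutant 1. It was 0 without female control 2, male control 1, male mutant 2 or male mutant 3. Over all genes the number went from 861 of 16973 to 1537 of 17049 without male mutant 1 and 457 of 16787 without male control 1. For the same comparisons, in the order female SP, male SP, female DMH, male DMH, SP and DMH, the likelihood ratio test called 0.0903%, 0.121%, 0.62%, 0.0649%, 0.165% and 0.221% of all genes, and DESeq2 called 0.0361%, 0.0423%, 0.453%, 0.0766%, 0.159% and 0.296%. None of the partner genes was called between genotypes.

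In SP the differences were small. Over the 38 genes tested the median log2 fold change was -0.02 in females and -0.15 in males, with 24 and 34 genes below 0, where 49.6% and 56.8% of all genes were below 0. These medians moved with single libraries. In males the median was -0.06 without male control 1, -0.08 without male mutant 2, -0.25 without male control 3 and -0.30 without male mutant 1. In females it lay between -0.09 and 0.02 when any 1 of the 5 libraries was left out, with 23 in place of 14 genes above 0 without female control 1, and it was 0.13 with female mutant 3 included. *Gabra5*, an alpha subunit found mainly outside synapses (chr7:57407672-57510059, minus strand), had 14.9, 12.4 and 14 CPM in female controls 1 to 3 and 12.3 and 9.66 CPM in female mutants 1 and 2, a log2 fold change of -0.34 (SE 0.12, edgeR FDR 1.00). *Grm3* had 5.31, 5.87 and 5.36 CPM in female controls and 4.49 and 4.57 in female mutants, and in males 17.5, 8.41 and 8.46 against 8.44, 5.42 and 7.91 CPM. Female mutant 3, which was left out, had 15.7 CPM of *Gabra5* and 9.46 of *Grm3*, above every female control, and with it included the log2 fold changes in females were -0.14 for *Gabra5* and 0.16 for *Grm3*, the latter in place of -0.29. Without it every female mutant was below every female control for 5 of the 38 receptor genes (*Gabra5*, *Grm3*, *Grm5*, *Glra3* and *Glrb*) and above for 3 (*Grm2*, *Grm7* and *Gria4*), where 7.49% and 8.11% of all genes were so. With it none was below, where 3.36% of all genes were so, and 2 were above (*Gria4* and *Grm7*), where 3.24% were so. With both sexes the log2 fold change of *Grm3* was -0.48 (SE 0.21, edgeR FDR 0.901), and -0.24 with female mutant 3 included. *Gabrd* had 0.741, 0.665 and 1.04 CPM in male controls and 0.476, 0.339 and 0.453 CPM in male mutants, without overlap (log2 fold change -0.96, SE 0.32, edgeR FDR 0.967). In female SP the *Gabrd* values were 0.656, 0.682 and 0.715 in controls and 0.917 and 0.521 in mutants, and the difference between the sexes did not pass the interaction test (edgeR FDR 1.00). *Gabra4* had 14.6, 13.1 and 12.9 CPM in male controls and 12.5, 8.73 and 10 in male mutants (log2 fold change -0.38, SE 0.17, edgeR FDR 0.967).

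In DMH most receptor genes had log2 fold changes slightly below 0 in mutants, and none was called. Of the 39 tested 35 had a log2 fold change below 0 in females and the same 35 in males, which share no library with the females, where 50.4% and 50.8% of all genes were below 0. The 4 above 0 in both were *Grik5*, *Grm2*, *Gabrr1* and *Gabbr1*. The median was -0.27 in females, -0.22 in males and -0.23 with both sexes. That of males was -0.10 without male control 1 and -0.08 without male mutant 2. For 21 genes every female mutant was below every female control, where 13.8% of all genes were so. With female mutant 3 included this was 1 gene, *Gabrq*, where 2.68% were so. In males there was no such gene, where 2.64% were so. With both sexes 18 receptor genes had an unadjusted p under 0.05 and 17 of these were lower in mutants, where 7.59% of all genes were so. Without sex as a covariate there was no receptor gene with such a p in edgeR, where 2.09% of all genes had one. The count of 18 fell to 8 without female control 3 or male control 1. It was 9 without female mutant 2 or male mutant 2 and 11 without female mutant 1. It rose to 26 without male mutant 1, 22 without male control 3 and 20 without female control 1. The number over all genes also moved. It went from 2590 of 17223 to 1530 of 17113 without female control 3 and 3896 of 17114 without male mutant 1. In females the count of 13 became 20 without female control 1 and 10 without female control 2. Over all genes the female number went from 1492 of 16773 to 3495 of 16848 and 744 of 16477. In males the count of 2 became 9 without male mutant 1, 4 without male control 3, 1 without male mutant 2 and 0 without any of the other 3. Over all genes the male number went from 490 of 16962 to 1366 of 17143 without male mutant 1 and 279 of 17152 without male mutant 2. By class the medians with both sexes were -0.23 for ionotropic and -0.24 for metabotropic glutamate receptors, -0.20 for GABA-A, -0.12 for GABA-B and -0.31 for glycine receptors. The smallest adjusted p was 0.327 with both sexes, 0.551 in females and 0.870 in males (edgeR). The 6 neuron genes summed to 5845 to 6328 CPM in DMH controls and 6027 to 6270 in DMH mutants, and the 6 progenitor genes to 1467 to 1807 and 1603 to 2033. Their part in the receptor values was not tested. The interactions of genotype with sex called no receptor gene in DMH or SP, with 0 and 1 at an unadjusted p under 0.05 in the quasi-likelihood and the likelihood ratio test of edgeR, and 0 and 0 in DESeq2. Without female control 2 none was called either. Over all genes 0.0% passed in either by the quasi-likelihood test, 0.0911% in DMH and 0.00576% in SP by the likelihood ratio test, and 0.0741% and 0.0173% by DESeq2.

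**Figure D4:**
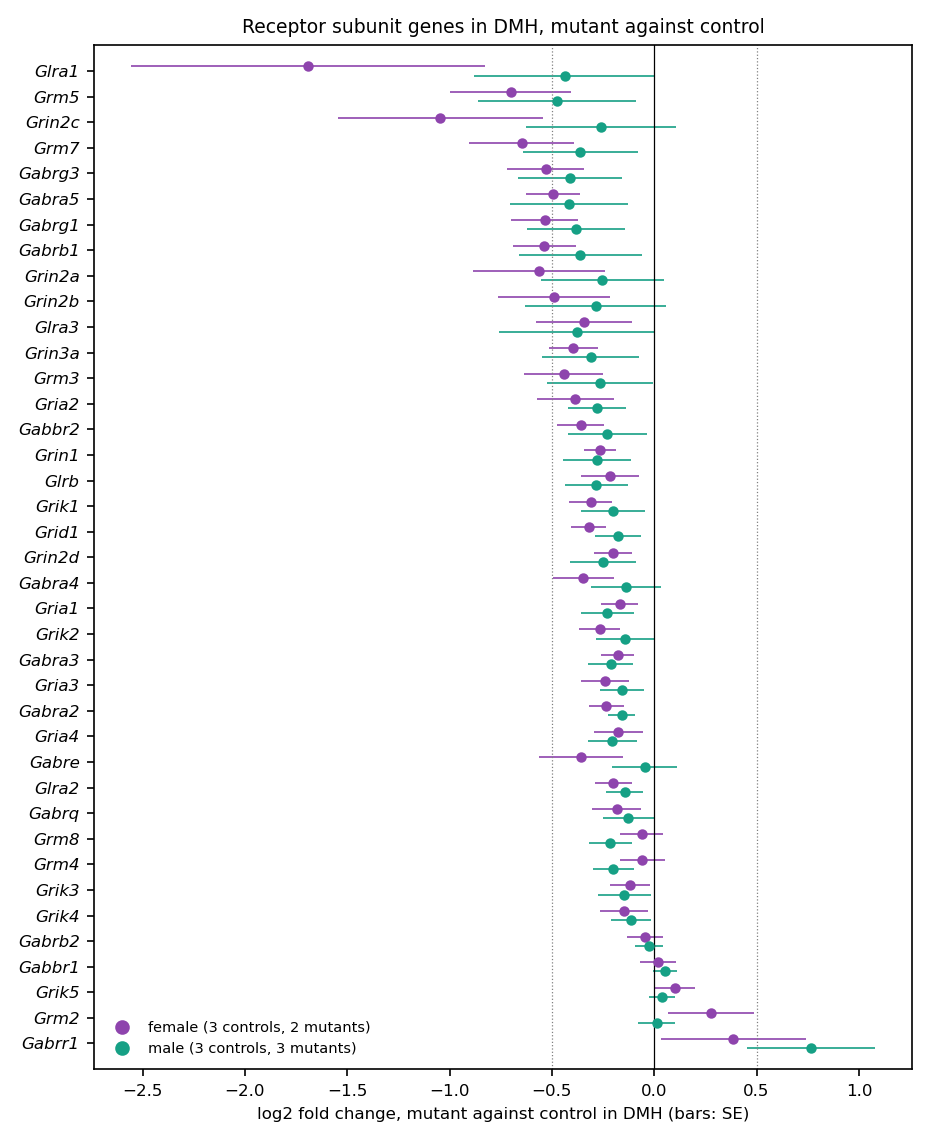
Log2 fold change between Tfap2b-/- and Tfap2b+/+ DMH (below 0, lower in mutants) for 39 receptor genes, with bars for the SE, in females (purple, 3 controls and 2 mutants) and males (green, 3 and 3). In both sexes 35 genes lie below 0, with medians of -0.27 and -0.22, and no gene was called.

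*Gabra2*, an alpha subunit of fast inhibitory synapses (chr5:70957597-71095849, minus strand), had the smallest p with both sexes. Its DMH levels were 80.1, 71.6 and 77.6 CPM in female controls, 68.6 and 60.6 in female mutants, 87.1, 92.9 and 83.1 in male controls and 85.4, 75.7 and 78.7 in male mutants. The log2 fold change was -0.19 (SE 0.05, edgeR FDR 0.327), and in males 1 mutant lay within the range of the controls. Female mutant 3 had 84.0 CPM, above every female control, and with it the change was -0.13. *Grid1* (chr14:34820108-35583379, plus strand) had 33.6, 37.5 and 36.9 CPM in female controls, 29.6 and 27.7 in female mutants, 48.8, 41.7 and 38.4 in male controls and 43.2, 34.3 and 38.6 in male mutants. Without female mutant 3 the groups were apart in females only, with log2 fold changes of -0.32 (SE 0.09, edgeR FDR 0.551) in females and -0.18 (SE 0.11, edgeR FDR 0.870) in males. Female mutant 3 had 41.2 CPM, above every female control, and including it gave -0.13 in females. *Gabra5* had 16.1, 18.5 and 21.5 CPM in female controls, 13.9 and 12.6 in female mutants, 34.3, 33.0 and 26.6 in male controls and 28.9, 14.1 and 28.3 in male mutants. It too was apart in females only, with log2 fold changes of -0.50 (SE 0.13, edgeR FDR 0.551) and -0.42 (SE 0.29, edgeR FDR 0.870). Female mutant 3 had 25.2 CPM of it, also above every female control, and the change in females was -0.11 with it. *Gabrr1* (chr4:33132521-33163588, plus strand) went the other way at low levels, with 0.213, 0.198 and 0.255 CPM in male controls and 0.426, 0.343 and 0.396 in male mutants, without overlap (log2 fold change 0.76, SE 0.31, edgeR FDR 0.870). *Gabbr1* hardly differed, with 519, 536 and 470 CPM in female controls, 489 and 532 in female mutants, 496, 521 and 483 in male controls and 530, 515 and 542 in male mutants (log2 fold change with both sexes 0.04, SE 0.05).

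The 4 libraries with a caudal *Hox* sum of at most 11.5 CPM were 3 of the 5 mutants and 1 of the 6 controls in these DMH tests, and 20 of the 39 receptor genes tested were lower in all 4 than in each of the other 8 DMH libraries, where 10.2% of all genes were so. None was higher in all 4, where 10.5% of all genes were so. The genes shown next were chosen after their values were seen. *Glra1* had 0.378 CPM in female control 1, 0.655 and 0.456 in female mutants 1 and 2 and 0.873 in male mutant 2, and 1.87 to 4.05 CPM in the other DMH libraries. *Grm5* (chr7:87584168-88134907, plus strand) had 59.6, 56.2, 42.5 and 59.4 CPM in those 4 and 74.0 to 190 CPM in the others. *Gabra5* had 16.1, 13.9, 12.6 and 14.1 CPM there and 18.5 to 34.3 CPM elsewhere. *Gabrb2* did not follow this split, with 97.7, 92.4, 81.8 and 94.1 CPM in the 4 and 85.9 to 99.4 in the others. *Slc6a5*, which marks glycinergic neurons of the hindbrain and spinal cord, had 0.453, 1.64, 0.667 and 6.14 CPM in the 4 libraries and 11.9 to 29.5 in the others. With the log2 caudal *Hox* level as a covariate the median log2 fold change of the receptor genes moved from -0.27 to -0.17 in females, from -0.22 to -0.05 in males and from -0.23 to -0.11 with both sexes, and 2, 1 and 2 genes had an unadjusted p under 0.05, where 2.4%, 1.63% and 2.63% of all genes did, in place of 8.9%, 2.89% and 15% without it. For *Glra1* the log2 fold change with both sexes was -0.83 (SE 0.49) without and 0.01 (SE 0.21) with the covariate. *Gabra2* stayed at -0.19 (SE 0.06) with both sexes and went from -0.23 to -0.30 in females, and *Gabrr1* went from 0.58 to 0.72 with both sexes. One of the 4 libraries was a control, while male mutants 1 and 3 and female mutant 3 had caudal *Hox* sums of 421, 484 and 443 CPM. The 6 midbrain and hindbrain genes summed to 204, 193, 161 and 201 CPM in the 4 and 147 to 208 in the others. Whether these libraries differ in the tissue dissected or in their biology was not tested.

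**Figure D5:**
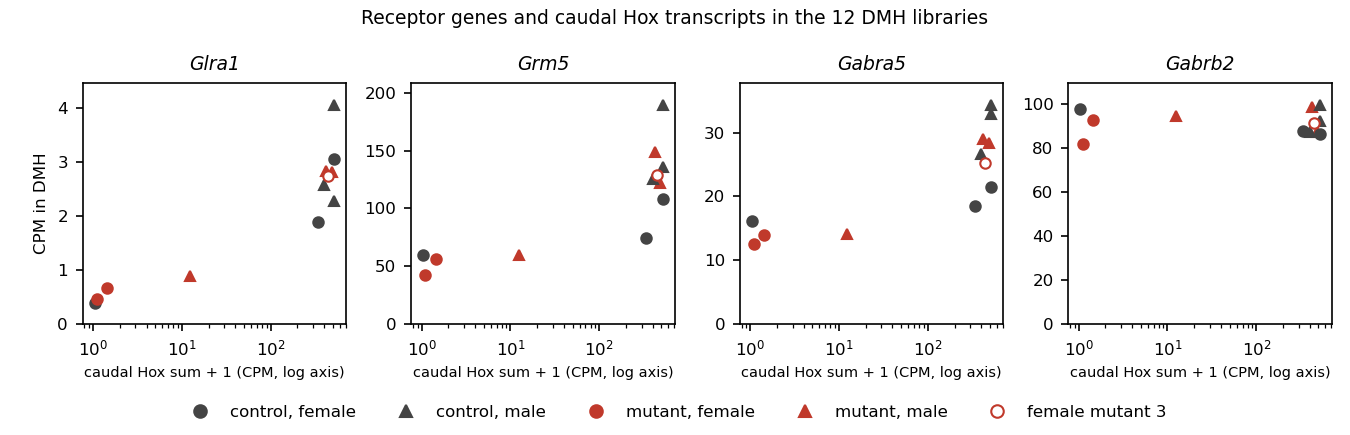
CPM of 4 receptor genes in the 12 DMH libraries against the sum of 14 caudal *Hox* genes plus 1, on a log axis in CPM. Controls are dark grey, mutants red, females circles, males triangles and female mutant 3 open. For *Glra1*, *Grm5* and *Gabra5* the 4 libraries with a *Hox* sum of 0.0378 to 11.5 CPM lay below all others, and for *Gabrb2* they overlapped with them.

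Single libraries moved the DMH calls. In females, leaving out female control 1 gave 10 called genes, all lower in mutants, with log2 fold changes from -0.58 for *Gabrg1* to -2.14 for *Glra1*. The same removal raised the calls over all genes from 1 to 1117, which was 6.63% of all genes, with 5.23% called lower. The other 8 were *Grm3*, *Gabrb1*, *Grm7*, *Grin2b*, *Gabrg3*, *Gabra5*, *Grm5* and *Grin2a*. With both sexes, leaving out male mutant 1 gave 6 called genes, all lower in mutants, which were *Gabrg1*, *Gabrb1*, *Grm7*, *Gabrg3*, *Gabra5* and *Grm5*. Over all genes the calls then went from 9 to 531, or 3.1%, with 2.45% called lower. Female control 1 was the control with a caudal *Hox* sum of 0.0378 CPM, and male mutants 1 and 3, at 421 and 484 CPM, were the only mutants in these tests above 11.5 CPM. Including female mutant 3 instead brought the median to -0.07 in females and -0.13 with both sexes, with 0 genes at an unadjusted p under 0.05 in edgeR and none called. Without female control 2 the female DMH median was -0.29 with none called. The region comparison of controls then called 28, where 5861 of 17384 genes were called.

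Receptor levels varied between embryos in ways that were shared by the 2 regions. Over the 12 embryos, with female mutant 3 included, the log2 levels in SP and DMH of the 35 genes above 1 CPM on average in both regions correlated with a median Pearson's r of 0.758, from 0.0713 for *Gabrq* to 0.915 for *Glra3*. Over all 13800 genes above this level the median r was 0.322. All 35 receptor genes had an r above 0, where 78.8% of all genes did. By Pearson's r 20 had a permutation p, adjusted over all 13800 genes, under 0.05, and by Spearman's rho 20, where 10.2% and 12.2% of all genes did. Within sexes the median r was 0.551 in the 6 embryos labelled female and 0.827 in the 6 labelled male. Over the 11 embryos without female control 2, whose transcripts go against its label, it was 0.780. Leaving out the 2 embryos farthest from the median SP level gave a median r of 0.660, and 31 of the 35 genes kept a positive r. *Grin2b* is an example, with an r of 0.889 and a rho of 0.825 (permutation p = 2.10e-04 and 0.00199, adjusted p = 0.0129 and 0.0293), an r of 0.80 without the 2 farthest embryos, and 0.697 in females and 0.982 in males. Its SP level was 83.1, 93.9 and 107 CPM in female controls and 336, 180 and 196 CPM in male controls, and in DMH it was 120, 152 and 219 CPM and 359, 210 and 247 CPM. From the lowest to the highest embryo it varied 4.05-fold in SP and 3.35-fold in DMH, and over the 35 genes the median of this range was 1.95-fold in SP and 1.85-fold in DMH. *Gabbr1* (r 0.198), *Grm2* (r 0.183) and *Grik4* (r 0.130) had the lowest r after *Gabrq*.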

How the data were processed

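RNA-sequencing libraries were made from polyadenylated RNA with a dUTP strand-specific protocol and sequenced as read pairs. Per the submitters' processing notes, cutadapt 2.4, STAR 2.6.1d and edgeR were used with GRCm38.p6 (mm10), and the annotation release is not given in the sources used here. For each library the authors deposited raw counts per gene in 3 columns (unstranded and each strand), without normalization. Read pairs mapping to several places (4.96 to 7.85% of fragments), unmapped (5.46 to 9.98%), in no gene (4.68 to 7.46%) or ambiguous (1.10 to 1.62%) are outside the gene counts, so reads shared by near-identical copies are not counted.

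From these files the reverse-strand counts were used, and the unstranded counts served as an alternative. CPM values were scaled over the 24 libraries with TMM factors. Of 54446 identifiers 37 had no symbol. Gene coordinates and exon lengths are those of GENCODE vM21. Comparisons were fitted with edgeR 4.0.16 in R 4.3.3 (filterByExpr, TMM, robust quasi-likelihood test), 1 fit for each comparison, with Benjamini-Hochberg adjustment over all genes tested. A gene was called between regions at an FDR under 0.05 and between genotypes at the study's FDR under 0.2, in both cases with an absolute log2 fold change over 0.5, and in interactions at an FDR under 0.2. Female mutant 3 was left out, as in the study. Fits of both sexes had sex as a covariate. Each SE was derived from the fitted log2 fold change and the F statistic (its size over the root of F). Ratios of low counts have exact conditional 95% intervals, which, like the floor of 3 counts, cover counting error only, since PCR copies are not independent molecules. DESeq2 1.42.0 and the other alternatives are given in the closing section. The scripts were tested on simulated counts with known changes. Correlations used log2(CPM + 0.5) and 100000 permutations for each gene above 1 CPM on average in both regions, with p-values adjusted over all of these genes.

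The SP and the DMH library of a replicate number were taken as 1 embryo, since the study dissected both regions from each brain and the label gives them the same number. Deviations of these pairs from their group means correlated at 0.08 to 0.55 over genes. The 47 genes, the lists and the tests were chosen with earlier results of these data known. Named genes were those called between genotypes, up to 3 of each class and direction with the largest difference between regions among those with no overlap, the most abundant per kb of each class, the 2 with the smallest p in each genotype comparison, and those at or under 3 counts in at least 20 libraries. Other members with values were named after these were seen.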

Additional observations from a re-analysis of the deposited data

How the results depend on the processing

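Across alternatives (RLE scaling, no count filter or at least 10 counts in every library, unstranded counts, the likelihood ratio test, DESeq2, a replicate block, other thresholds, no sex covariate, female mutant 3 included, the caudal *Hox* covariate and each replicate left out), 196 of 199 counts of called receptor genes stayed within 1.5 times the reported count. Most of these counts came from genotype comparisons and interactions, where 0 called receptor genes stayed at 0, which does not measure stability. The counts that moved were in DMH between genotypes. Without a filter on low counts 5 genes were called in females (*Gabrb1*, *Grm7*, *Gabrg1*, *Grin2a* and *Gabrg3*, all lower in mutants), where 535 of 29519 genes were called against 1 with the filter. Leaving out 1 replicate gave 0 to 10 called genes in females, with 10 only without female control 1, and 0 to 6 with both sexes, with 6 only without male mutant 1. Of 397 values of named genes, each in the comparison that named it and under alternatives other than the thresholds, 395 kept their direction and side of the threshold. These do not include the region comparison of mutants, where *Grm5* lost its call without a count filter (edgeR FDR 0.0877) and without the sex covariate (0.0596), as *Gabrg3* did without the sex covariate (0.108), beside the losses on leaving out replicates given above. At a log2 fold change beyond 1 the region comparisons called 23 genes in controls and 19 in mutants. Over all genes 2704 of 17196 were called in controls and 2613 of 17148 in mutants. The receptor genes lost were *Gabbr1*, *Gabrg1* and *Grm2* in both, *Gabra5* and *Glra2* in controls, and *Gabre*, *Gabrg3*, *Gria4*, *Grid1*, *Grik3* and *Grm5* in mutants. *Grm3* in female SP turned from -0.29 to 0.16 (edgeR FDR 1.00) with female mutant 3 included, and *Gabra5* in female DMH reached -0.59 (edgeR FDR 0.0587) without female control 1. The causes were not tested. In the region comparisons leaving out 1 embryo gave 28 to 30 called genes in controls and 26 to 28 in mutants. Over all genes the calls then ran from 5721 of 17183 to 6181 of 17578 in controls. In mutants they ran from 5006 of 16973 to 5295 of 17503.

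With the embryo as a replicate block 29 genes were called between regions in controls and 28 in mutants. Over all genes 6225 of 17943 were called in controls and 5547 of 17613 in mutants. *Gabrr1* was added in controls, where it passed the filter through its DMH libraries alone. No other call of a receptor gene changed. Control and mutant libraries of 1 number shared only that number. Their deviations correlated at -0.28 to 0.40 over 10 pairs of both sexes. Among male libraries, the only ones compared in this way, 4 of 6 SP and 3 of 6 DMH samples correlated best with their own number. With this number as a block no receptor gene was called between genotypes.

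Genes at few counts (*Glra1*, *Gabrd* and *Gabrr1* in 1 region) are limited by depth, and were not tested between regions with at least 10 counts in every library.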
